A study of Mus musculus with 4 samples.

Results

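The cells described here are dividing cells of the melanotroph lineage in pituitaries of p25OE mice, which overexpress p25 from a transgene. They were picked from single-cell RNA counts in steps. A barcode, the tag that stands for a cell, was kept with at least 500 genes and at most 20% mitochondrial unique molecular identifiers (UMIs, each standing for a captured RNA molecule). It entered the melanotroph-lineage gate with at least 2 UMIs of Pcsk2 and with Gh and Prl each under 10% of its UMIs. It was called dividing with at least 1 UMI of at least 6 of the 10 genes Mki67, Top2a, Birc5, Cdk1, Ccnb1, Ccnb2, Cenpf, Ube2c, Pbk and Nusap1, called rule genes below. The reference class, called non-dividing, was the barcodes of the same gate and library with 0 UMIs of all 10. In all, 433 barcodes were dividing among 44108 in the series, 363 of 6799 gated barcodes in the p25OE library at 40 weeks and 70 of 1824 in the p25OE library at 14 weeks.

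The groups were p25OE pituitary at 40 weeks of age, p25OE pituitary at 14 weeks, WT pituitary at 40 weeks and WT pituitary at 14 weeks, with 1 library each; the WT mice were littermates, and every sample carries the strain label C57BL/6- B6;CBA-BiTg. Cells were freed with papain at 37 °C and red cells were lysed before loading on a 10x Genomics 3′ kit. The promoter of the p25 transgene, the cells it is active in and the number of animals behind a library are not given in the sources used here. The labels speak of 2 independent runs without saying which libraries shared a run, so age, run and library cannot be told apart. With 1 library in each group no difference has a replicate check, and no p-value is given. Intervals are exact 95% intervals for counting error only. UMIs from the same cell are not independent, so these intervals are too narrow as statements about cells.

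Melanotrophs are the endocrine cells of the intermediate lobe. They make the prohormone pro-opiomelanocortin from Pomc, cut it with the convertase encoded by Pcsk2 into alpha-MSH and related peptides, and hold their identity through the transcription factors Pax7 and Tbx19. In the adult they rarely divide. A cell that enters the cycle first loads the MCM helicase, of which Mcm2 is a subunit, at replication origins, then copies its DNA in S phase, and then builds the kinetochores and spindle of mitosis under cyclin B and Cdk1. CDK inhibitors such as the products of Cdkn1a (p21) and Cdkn2a (p16 and p19ARF) hold this progress back. p25 is a fragment of p35, the product of Cdk5r1, and activates the kinase Cdk5; the title of the series concerns Cdk5, phosphorylation of Mcm2 and pituitary tumours.

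The libraries held between 53714895 and 95242353 UMIs over 8125 to 15018 barcodes, of which 6579 to 7927 were kept. The gate took 88.0% of kept barcodes in the p25OE library at 40 weeks, 23.8% in the p25OE library at 14 weeks, 8.63% in the WT library at 40 weeks and 8.82% in the WT library at 14 weeks. Dividing barcodes were deeper than their reference class. At 40 weeks their median was 10024 UMIs, against 5670 in non-dividing barcodes, and 3659 genes, against 2315. At 14 weeks the medians were 17702 UMIs, against 7206, and 5319 genes, against 2727. Levels below are in CPM, the summed UMIs of a gene in a class scaled to a common total for every class. The summed UMIs were 4389626 in dividing and 16069289 in non-dividing barcodes at 40 weeks, and 1491431 and 9123002 at 14 weeks. No barcode sequence was called dividing in both libraries of any pair. The p25OE and WT libraries shared 135 barcode sequences at 40 weeks and 32 at 14 weeks. Whether dividing p25OE barcodes were among these shared sequences was not checked. No doublet caller was run, so 2 cells under a barcode were not removed.

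Dividing barcodes made up 5.34% of the p25OE gate at 40 weeks (95% Clopper-Pearson interval 4.82 to 5.90%) and 3.84% at 14 weeks (3.0 to 4.82%). In the WT gate there were 0 of 684 at 40 weeks, which allows a share of up to 0.439% (3 counts of the total; the exact upper bound is 0.538%), and 2 of 580 at 14 weeks, a share of 0.345% (0.0418 to 1.24%). Because depth bears on how many rule genes are seen, every gated barcode with enough UMIs was also thinned at random to 2000 UMIs. After thinning, 2.89% of p25OE barcodes at 40 weeks and 1.66% at 14 weeks had at least 6 rule genes, against 0% of WT barcodes at 40 weeks and 0.180% at 14 weeks. At least 2 rule genes were seen in 8.82% and 5.31% of the thinned p25OE barcodes at 40 and 14 weeks, against 0.155% and 0.180% of the thinned WT barcodes at these ages. Thinning left out 460 p25OE and 40 WT barcodes at 40 weeks and 72 p25OE and 23 WT barcodes at 14 weeks that held too few UMIs.

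The 10 rule genes split the gate into a large low group and a smaller high one. At 40 weeks 2550 barcodes had none, 3886 had 1 to 5 and 155 had all 10; at 14 weeks the counts were 1013, 741 and 31. Just outside the threshold lay 72 barcodes with 5 genes at 40 weeks and 23 at 14 weeks, and just inside it 43 and 8 barcodes with 6. At 40 weeks the barcodes with 6 genes had a median of 8255 UMIs, against 12926 for those with 5. Their median share of mitosis UMIs was 35.7 per 10000, against 13.4 per 10000 for those with 5. At 14 weeks this difference was not seen: the 8 barcodes with 6 genes had a median of 14.2 per 10000, against 15.5 per 10000 for the 23 with 5, at median depths of 22763 and 16710 UMIs. Top2a, the topoisomerase that untangles sister chromatids, was found in 94.2% of dividing barcodes at 40 weeks and 100% at 14 weeks. Mki67, the antigen that marks cycling cells, was found in 86.0% and 90%, and Ccnb1, the cyclin B1 that activates Cdk1, in 74.1% and 67.1%. Kept barcodes outside the gate, in the same 40-week library, held Top2a in 7.55% and Mki67 in 6.15%. These detections follow from the choice and are a description of it.

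**Figure D1:**
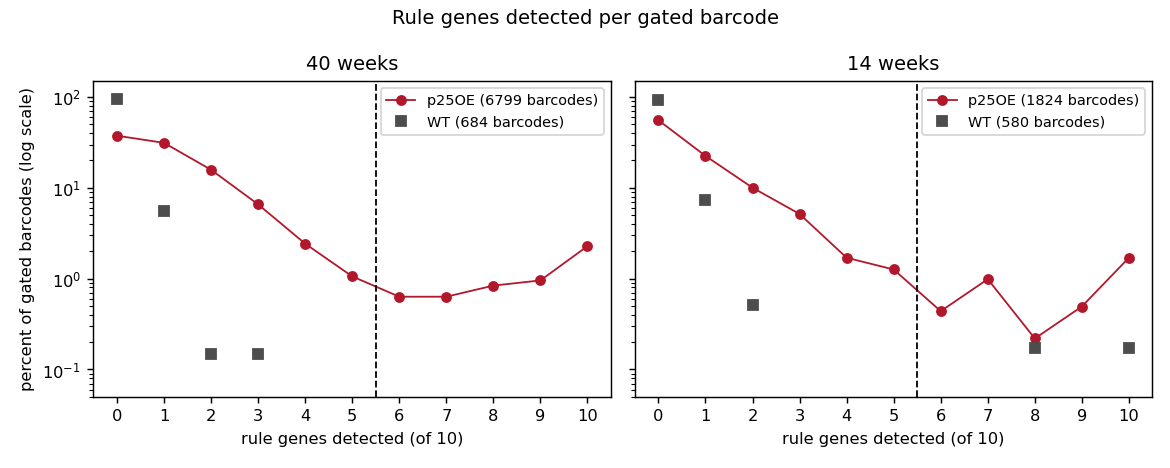
Percent of gated barcodes (log axis) at each number of detected rule genes, for p25OE (circles) and WT (squares) at 40 weeks and 14 weeks; shares of 0 are not drawn and the dashed line is the threshold of 6. The p25OE curves bend up again towards 10 rule genes, with 155 barcodes at 40 weeks and 31 at 14 weeks, while 0 and 2 WT barcodes lie beyond the line.

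The melanotroph label was checked against its markers. Pax7 had 116 CPM in dividing barcodes at 40 weeks, against 147 CPM in non-dividing ones, and 194 CPM, against 190 CPM, at 14 weeks. Tbx19 had 38.5 CPM, against 49.2 CPM, at 40 weeks and 57.7 CPM, against 75.8 CPM, at 14 weeks. Both factors were detected in the dividing class at both ages, within 1.5-fold of the non-dividing level, but some alternatives took them past that line. Pax7 was at a log2 ratio of −0.75 at 40 weeks in barcodes of 5000 to 20000 UMIs, and Tbx19 was at −0.77 at 40 weeks without the 6% of gated barcodes with the most UMIs and at −0.93 at 14 weeks with at least 8 rule genes. The 4 corticotroph markers Crhr1, Gpr165, Tnnt1 and Avpr1b, which mark the other Pomc cell of the pituitary, summed to 2.51 CPM, against 4.67 CPM, at 40 weeks and to 7.38 CPM, against 21.9 CPM, at 14 weeks. Avpr1b was at 0 in dividing barcodes at both ages. Pou1f1, the factor of somatotrophs, lactotrophs and thyrotrophs, had 2.05 and 7.38 CPM in dividing barcodes at 40 and 14 weeks. Gh had 514 CPM, against 605 CPM, at 40 weeks and 4545 CPM, against 4509 CPM, at 14 weeks. A single barcode held 3340 of the 5466 Gh UMIs in the 51 dividing barcodes with at least 1% Pomc at 14 weeks. The near-equal Gh levels at 14 weeks therefore rest in large part on that barcode. The gate itself capped Gh, so Gh is a limited check of the label.

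Markers of other cell types differed between the classes in places, in both directions. Of 7 macrophage markers (C1qa, C1qb, C1qc, Tyrobp, Fcer1g, Csf1r and Ctss), all were detected at 40 weeks, with a summed level of 325 CPM in dividing and 444 CPM in non-dividing barcodes. At 14 weeks their summed level was 81.1 CPM, against 243 CPM. At least 3 of them were seen in 50 of 363 dividing barcodes (13.8%), against 145 of 2550 non-dividing barcodes (5.69%), at 40 weeks. At 14 weeks the counts were 6 of 70 (8.57%), against 65 of 1013 (6.42%). These counts were not matched for depth, and dividing barcodes were deeper. Plvap, a protein of fenestrated endothelium, had 55.4 CPM, against 31.1 CPM, at 40 weeks and 43.6 CPM, against 10.1 CPM, at 14 weeks. The endothelial cadherin Cdh5 was at 0 and Emcn had 1 UMI in dividing barcodes at 40 weeks. At 14 weeks all 4 endothelial markers (Pecam1, Cdh5, Plvap and Emcn) were detected in dividing barcodes. Their summed level there was 71.7 CPM, against 12.6 CPM in non-dividing barcodes, and all 26 Emcn UMIs came from 1 dividing barcode. The thyrotroph markers summed to 46.9 CPM in dividing barcodes at 14 weeks, against 4162 CPM in non-dividing ones. In the WT gate at 40 weeks, 38.5% of non-dividing barcodes had at least 3 macrophage markers and Cga stood at 8669 CPM, so WT levels include RNA of other cells. The 5 stem cell markers (Sox2, Aldh1a2, Fstl1, Cyp2f2 and Rbpms) summed to 72.2 CPM, against 48.5 CPM, at 40 weeks. At 14 weeks they summed to 219 CPM, against 133 CPM. There 41.4% of dividing and 9.87% of non-dividing barcodes held at least 3 of their UMIs, shares that were not matched for depth. Of these markers Sox2 is also found in melanotrophs, and 79 Cyp2f2 UMIs at 14 weeks came from 1 dividing barcode.

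Across all genes with at least 20 UMIs in the dividing class plus the depth-matched non-dividing class, 12476 were compared at 40 weeks and 10927 at 14 weeks. A gene was called higher or lower at 1.5-fold. At 40 weeks 2490 genes were called higher (20%) and 679 lower (5.44%). At 14 weeks 2510 were called higher (23.0%) and 636 lower (5.82%). The higher genes were thus 78.6% of called genes at 40 weeks and 79.8% at 14 weeks. These shares depend on the scaling: scaling by the median of ratios, which lowers every log2 ratio by 0.17 at 40 weeks and 0.25 at 14 weeks, gave 60.1% and 52.0%, and the mean of each barcode's own CPM gave 63.6% and 69.2%. The median log2 ratio of all compared genes was 0.16 at 40 weeks and 0.22 at 14 weeks. The 10773 genes compared at both ages included 1383 called higher at both, a share of 69.9% of the higher calls of the older library and 56.3% of those of the younger. Lower at both were 155 genes, being 36.2% and 26.2% of the lower calls of these libraries, while 17 and 24 genes were called in opposite directions. Gene lists are given below by their counts and medians beside these values; a member could pass the 20-UMI filter through the dividing class alone, so the counts are a description.

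Mitosis genes other than the rule genes were far higher in dividing barcodes at both ages. Of 50 listed, 47 were matched by symbol and all 47 passed the filter; 46 were called higher and 0 lower at 40 weeks, with a median log2 ratio of 4.91, and 46 higher and 0 lower at 14 weeks, with a median of 5.26. The other 3 were listed under older symbols (Sgol1, Sgol2a and Fam64a) and stayed out of these counts; under their present names Sgo1, Sgo2a and Pimreg they had log2 ratios of 4.96, 5.15 and 5.53 at 40 weeks and 6.48, 6.29 and 9.62 at 14 weeks. Aurkb, the kinase of the chromosomal passenger complex, had 64.5 CPM in dividing and 0.871 CPM in non-dividing barcodes at 40 weeks, and 77.8 and 0.877 CPM at 14 weeks. Hmmr, a spindle protein, had 188 and 3.48 CPM at 40 weeks and 244 and 0.548 CPM at 14 weeks. Cenpa, the histone H3 variant of centromeres, had 585 and 12.8 CPM at 40 weeks and 331 and 4.49 CPM at 14 weeks. The WT gate held 0, 0.387 and 1.93 CPM of these 3 genes at 40 weeks and 0.260, 0.867 and 2.08 CPM at 14 weeks. The member that was not called was Pttg1, the gene of securin. It had 34.4 CPM in dividing and 34.8 CPM in non-dividing barcodes at 40 weeks (log2 ratio −0.02, −0.29 to 0.25) and 43.6 and 47.9 CPM at 14 weeks (−0.14, −0.54 to 0.24), and the WT gate held more, 74.4 CPM and 64.1 CPM.

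**Figure D2:**
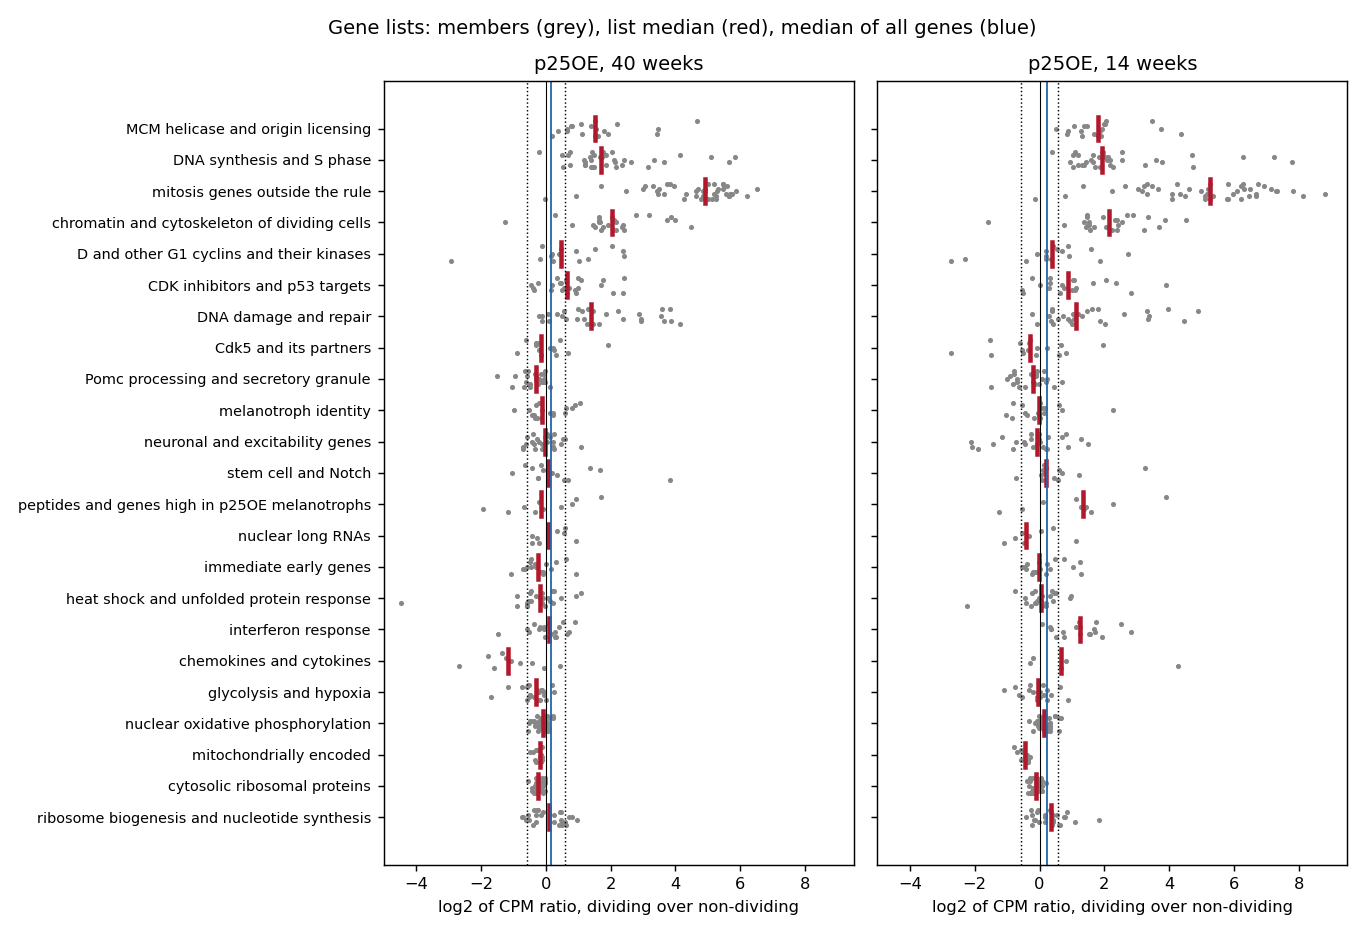
Log2 ratio of CPM, dividing over non-dividing, for the members of each gene list that passed the 20-UMI filter, at 40 and 14 weeks; grey points are genes, red bars list medians, the blue line the median of all compared genes and dotted lines the 1.5-fold thresholds. The mitosis list sits highest (medians 4.91 and 5.26), then chromatin, S phase and MCM genes, while ribosomal and granule lists lie around or below 0.

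Genes with the highest ratios among those not matched to a list included several of the kinetochore, the spindle and sister chromatid cohesion. By the bound nearest to no difference at the lesser of the ages, the first included Ska1, Ankle1, Esco2, Depdc1a, Pimreg (listed as Fam64a), Dlgap5, Knl1, Troap and Cdca2. Ska1, which couples kinetochores to microtubules, had 69.7 CPM, against 0.685 CPM in non-dividing barcodes, at 40 weeks and 46.9 CPM, against 0.219 CPM, at 14 weeks. Esco2, the acetyltransferase that establishes sister chromatid cohesion in S phase, had 93.4 CPM, against 1.49 CPM, at 40 weeks and 115 CPM, against 1.10 CPM, at 14 weeks. Knl1, a scaffold of the outer kinetochore, had 93.2 CPM, against 1.80 CPM, at 40 weeks and 163 CPM, against 0.329 CPM, at 14 weeks. Dlgap5 and Troap, both spindle proteins, stood at 66.7 and 82.7 CPM in dividing barcodes at 40 weeks, against 1.18 and 1.68 CPM. The log2 ratios of the genes named here ran between 5.35 and 7.05 at 40 weeks and between 6.41 and 9.62 at 14 weeks.

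Promoters were read because cell cycle genes are known to share promoter elements. A cell cycle genes homology region (CHR, searched as TTTGAA) and CCAAT boxes (CCAAT) are known from G2 and mitosis genes, and E2F sites (searched as TTGGCGC or as TTCCCGC or as TTGCCGC or as TTCGCGC) from S phase genes. All were searched on both strands in windows running from 250 bases before to 50 bases after the start of a gene, taken from RefSeq for GRCm38.p6; E2F letters can overlap each other, and an E2F match can overlap a CCAAT match. Shown are 2 rule genes with CHR and CCAAT matches, and Mcm2 beside Mcm6, since these partners in the same helicase differ in their matches; capitals mark the matches.
Top2a: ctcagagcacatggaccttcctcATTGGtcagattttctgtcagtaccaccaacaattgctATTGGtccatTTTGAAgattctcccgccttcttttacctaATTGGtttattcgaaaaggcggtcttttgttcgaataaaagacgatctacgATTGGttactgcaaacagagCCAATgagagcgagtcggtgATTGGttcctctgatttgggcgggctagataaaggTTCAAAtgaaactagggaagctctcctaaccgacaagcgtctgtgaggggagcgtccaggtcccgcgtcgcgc
Ccnb2: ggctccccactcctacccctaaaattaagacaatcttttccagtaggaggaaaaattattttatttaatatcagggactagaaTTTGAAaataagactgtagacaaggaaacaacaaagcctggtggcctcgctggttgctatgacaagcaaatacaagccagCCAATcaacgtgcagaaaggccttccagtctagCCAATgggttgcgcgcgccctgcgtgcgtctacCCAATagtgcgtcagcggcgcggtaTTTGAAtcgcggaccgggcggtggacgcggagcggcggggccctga
Mcm2: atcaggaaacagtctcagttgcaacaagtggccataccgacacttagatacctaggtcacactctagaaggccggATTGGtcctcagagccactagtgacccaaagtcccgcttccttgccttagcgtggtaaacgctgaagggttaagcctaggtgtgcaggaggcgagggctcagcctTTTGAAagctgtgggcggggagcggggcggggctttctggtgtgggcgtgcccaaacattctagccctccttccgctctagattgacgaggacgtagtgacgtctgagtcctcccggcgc
Mcm6: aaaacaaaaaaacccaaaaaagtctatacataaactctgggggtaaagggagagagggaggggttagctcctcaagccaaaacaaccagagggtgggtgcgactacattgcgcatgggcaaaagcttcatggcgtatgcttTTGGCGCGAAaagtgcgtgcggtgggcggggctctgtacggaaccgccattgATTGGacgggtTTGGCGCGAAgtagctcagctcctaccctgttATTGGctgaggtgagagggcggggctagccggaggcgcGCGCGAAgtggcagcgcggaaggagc
The windows lie at chr11:99024140-99024439 for Top2a, chr9:70421505-70421804 for Ccnb2, chr6:88898731-88899030 for Mcm2 and chr1:128359656-128359955 for Mcm6, all on the minus strand. Top2a held 2 CHR and 6 CCAAT matches and Ccnb2 held 2 and 3, with no E2F match in either. Mcm6 held 5 overlapping E2F matches, 2 CCAAT matches and no CHR, while Mcm2 held 1 CHR, 1 CCAAT and no E2F match.

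Among all 32851 windows, 17.9% held a CHR, 37.4% a CCAAT box, 9.57% an E2F match and 6.95% both a CHR and a CCAAT box. Of the 43 windows of the mitosis list, 69.8% held a CHR and 60.5% both. The 36 windows of the S phase list held a CHR in 11.1% and an E2F match in 58.3%, and the 18 windows of the MCM list held them in 33.3% and 61.1%. Genes were also grouped by their ratio, with the rule genes left out. At 40 weeks a CHR was found in 9.03% of genes called lower, 12.3% within 1.5-fold, 17.7% at 1.5 to 4-fold, 28.7% at 4 to 16-fold and 57.8% of the 83 genes with a window above 16-fold. At 14 weeks these shares were 10.9%, 12.1%, 16.4%, 26.1% and 61.4%. E2F matches peaked in the 4 to 16-fold group, at 37.8% at 40 weeks and 42.5% at 14 weeks, against 22.9% and 26.1% above 16-fold. A match is a run of letters and says nothing of whether a factor was bound.

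S phase genes were higher as well. Of 36 listed genes, 33 were called higher and 0 lower at 40 weeks, with a median log2 ratio of 1.71, and 35 higher and 0 lower at 14 weeks, with a median of 1.93. Ccna2, the cyclin A that drives S phase and G2, had 207 CPM in dividing and 3.61 CPM in non-dividing barcodes at 40 weeks and 148 and 0.987 CPM at 14 weeks. Rrm2, the ribonucleotide reductase subunit that limits deoxynucleotide supply, had 115 and 2.30 CPM at 40 weeks and 121 and 0.548 CPM at 14 weeks. Tk1, the thymidine kinase, had 77.5 and 4.36 CPM at 40 weeks and 51.6 and 1.97 CPM at 14 weeks. Pcna, the sliding clamp, stood lower in this order, with 169 and 60.1 CPM at 40 weeks and 125 and 33.8 CPM at 14 weeks. Thus S phase genes differed from each other in how much of their signal was already present in non-dividing barcodes.

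The helicase genes themselves showed smaller ratios, and Mcm2 at 40 weeks the smallest. Of 20 helicase and licensing genes, 19 passed the filter; 17 were called higher and 0 lower at 40 weeks (median log2 ratio 1.52), and 18 higher and 0 lower at 14 weeks (median 1.80). Mcm2 had 66.7 CPM in dividing barcodes at 40 weeks, against 58.9 CPM in non-dividing ones, and 7.92 CPM in the WT gate. Its log2 ratio was 0.18 (−0.01 to 0.37), it was not called, and it was −0.07 with the mean of each barcode's CPM. At 14 weeks it had 112 CPM, against 45.6 CPM in non-dividing barcodes and 13.3 CPM in the WT gate, a log2 ratio of 1.30 (1.03 to 1.56), which was called. The ages differed in this gene; each is 1 library, so the difference was not tested.

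The other subunits Mcm3, Mcm5, Mcm6 and Mcm7 were called higher at both ages. Mcm5 had 52.4 CPM, against 18 CPM in non-dividing barcodes, at 40 weeks (log2 ratio 1.54, 1.29 to 1.80) and 79.1 CPM, against 20.9 CPM, at 14 weeks (1.92, 1.57 to 2.26). Mcm6 had 73.1 CPM, against 42.4 CPM, at 40 weeks (0.78, 0.59 to 0.98) and 152 CPM, against 55.0 CPM, at 14 weeks (1.46, 1.23 to 1.69). Mcm4 was not called at 40 weeks, with 26.0 CPM, against 19.9 CPM (0.38, 0.06 to 0.70), and was at 14 weeks, with 104 CPM, against 42.5 CPM (1.29, 1.01 to 1.56). The subunits thus showed ratios between 0.18 and 1.54 at 40 weeks. The factors Mcm10, Cdc6 and Dbf4 had larger ratios than any subunit. Mcm10 had 15.7 CPM, against 0.622 CPM, at 40 weeks and 20.8 CPM, against 1.86 CPM, at 14 weeks; Cdc6, which loads the helicase, had 12.1 CPM, against 1.12 CPM, and 20.1 CPM, against 0.987 CPM; Dbf4, the activator of the Cdc7 kinase that phosphorylates the helicase, had 67.0 CPM, against 6.04 CPM, and 65.0 CPM, against 4.82 CPM.

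Grouping the gate by how many rule genes were seen shows where each gene changes. Mcm2 stood at 58.9, 63.8, 64.9, 74.5, 88.4 and 60.9 CPM at 0, 1, 2 to 3, 4 to 5, 6 to 7 and 8 to 10 genes at 40 weeks, and at 45.6, 74.4, 94.8, 114, 128 and 102 CPM at 14 weeks. At both ages its highest value was in the 6 to 7 group and not in the 8 to 10 group. The exact 95% Poisson intervals of these groups were apart at 40 weeks, 70.4 to 110 CPM and 52.9 to 69.7 CPM. At 14 weeks they overlapped, 101 to 160 CPM from 26 barcodes and 81.9 to 125 CPM. Ccna2 stayed at 2.5 to 10.7 CPM up to 4 to 5 genes at 40 weeks and was 90.5 and 239 CPM in the last 2 groups. Cdkn1a stayed at 75.5 to 91.5 CPM over the same range at 40 weeks and was 281 and 326 CPM above it. At 14 weeks Cdkn1a had 43.3, 70.6, 139, 210, 218 and 360 CPM over the 6 groups, without such a step. Depth also differs between these groups, and its part was not tested.

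**Figure D3:**
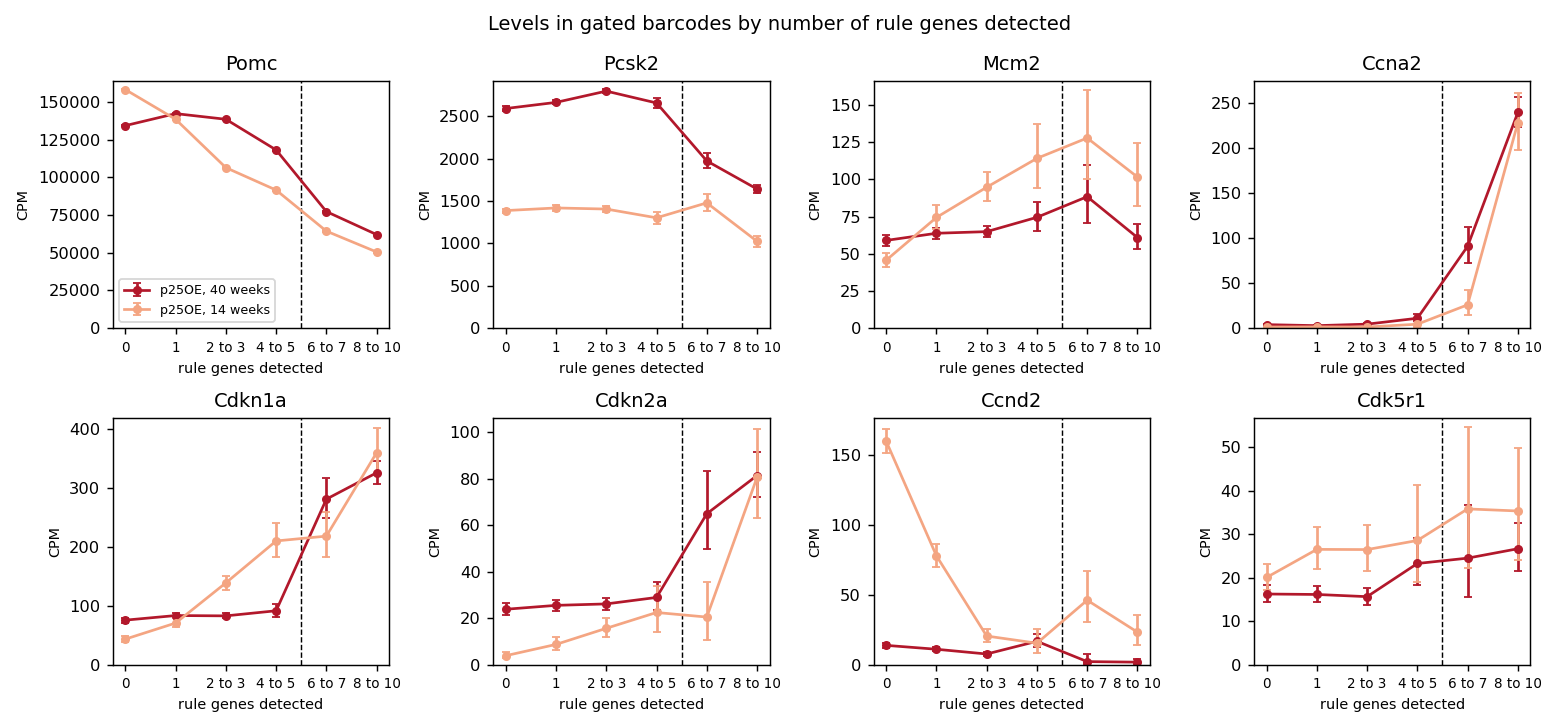
CPM of summed UMIs for 8 genes in gated barcodes with 0, 1, 2 to 3, 4 to 5, 6 to 7 and 8 to 10 rule genes, in p25OE at 40 weeks (red) and 14 weeks (orange); bars are exact 95% Poisson intervals and the dashed line is the threshold. Ccna2 climbs past the line to 239 and 228 CPM, Pomc ends at 62012 and 50453 CPM, and Mcm2 is highest at 6 to 7 rule genes.

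Chromatin and cytoskeleton genes of dividing cells were higher as a list, with a histone exception. Of 26 genes, 24 were called higher and 1 lower at 40 weeks (median log2 ratio 2.06), and 25 higher and 1 lower at 14 weeks (2.14). Hmgb2, a chromatin protein, had 1763 CPM, against 111 CPM in non-dividing barcodes, at 40 weeks and 1781 CPM, against 121 CPM, at 14 weeks. Hist1h2ap, a histone H2A gene, had 266 CPM, against 12 CPM, at 40 weeks and 343 CPM, against 26.6 CPM, at 14 weeks. Hist1h4c, a histone H4 gene, was lower, with 4.56 CPM, against 10.8 CPM, at 40 weeks and 7.38 CPM, against 22.3 CPM, at 14 weeks. It rests on 20 and 11 UMIs in dividing barcodes. Histone genes belong to families of near-identical copies, most of their mRNAs lack a poly(A) tail, and how reads were split between copies is not given in the sources used here.

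Individual dividing barcodes leaned more often to mitosis than to S phase. At 40 weeks 271 of 363 held more UMIs of the mitosis list than of the MCM and S phase lists together, 87 held more S phase UMIs and 5 held equal numbers; at 14 weeks the counts were 41 and 29 of 70. The median was 112 mitosis and 38.3 S phase UMIs per 10000 at 40 weeks, and 88.9 and 40.7 at 14 weeks. Non-dividing barcodes had medians of 8.33 mitosis and 14.8 S phase UMIs per 10000 at 40 weeks and 6.23 and 13.5 at 14 weeks. At least 10 genes of the MCM and S phase lists were seen in 90.9% of dividing and 30.5% of non-dividing barcodes at 40 weeks and in 90% and 43.8% at 14 weeks. Across dividing barcodes the 2 shares had a Pearson correlation of −0.13 over 363 barcodes at 40 weeks and 0.16 over 70 at 14 weeks, barcodes that share a library. Since the choice was made on mitosis genes, the lean to mitosis partly follows from it.

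**Figure D4:**
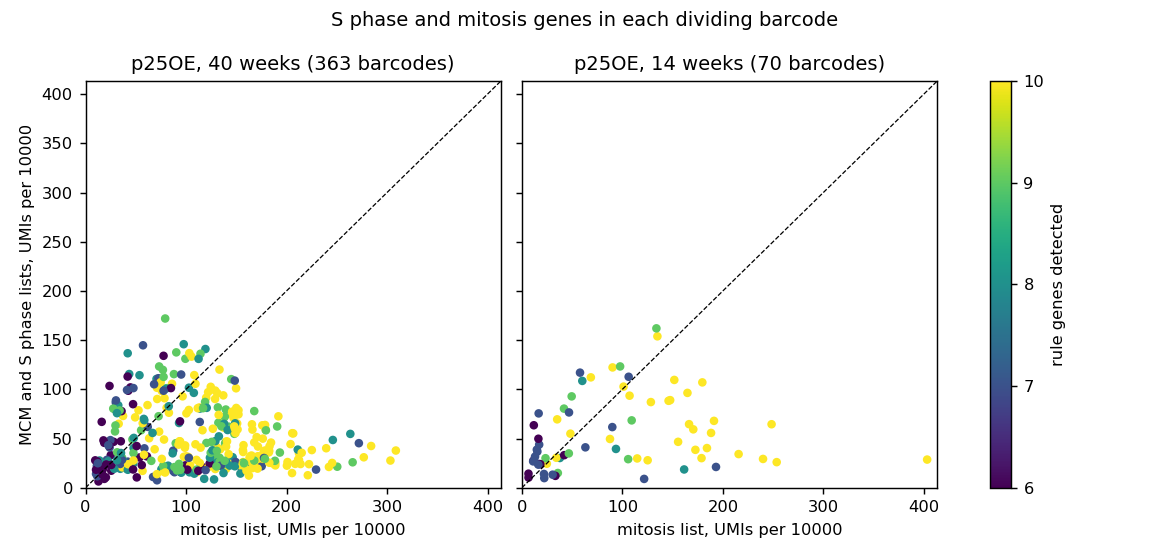
UMIs of the MCM and S phase lists (vertical) against UMIs of the mitosis list without the rule genes (horizontal), both per 10000 UMIs of a barcode, for the 363 and 70 dividing barcodes of the p25OE libraries at 40 and 14 weeks; colour is the number of rule genes and the dashed line marks equal values. Most points lie below the line, 271 at 40 weeks and 41 at 14 weeks, and points with 10 rule genes reach farthest along the mitosis axis.

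CDK inhibitor genes were higher in the dividing barcodes, not lower. Of 24 CDK inhibitor and p53 target genes, all passed the filter at 40 weeks, 13 called higher and 0 lower (median log2 ratio 0.65); at 14 weeks 20 passed, 13 called higher and 0 lower (median 0.88). Cdkn1a had 316 CPM in dividing barcodes at 40 weeks, against 75.5 CPM in non-dividing ones and 11.4 CPM in the WT gate, a log2 ratio of 2.07 (1.95 to 2.18). At 14 weeks it had 304 CPM, against 43.3 CPM and 10.8 CPM in the WT gate, a ratio of 2.81 (2.62 to 3.01). Cdkn1a was seen in 78.5% of dividing barcodes at 40 weeks and 81.4% at 14 weeks, and no barcode held over 8.59% of its dividing UMIs at either age.

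The INK4 inhibitors, which bind Cdk4 and Cdk6, behaved alike. Cdkn2a had 77.9 CPM in dividing barcodes, against 23.8 CPM in non-dividing ones and 0.966 CPM in the WT gate, at 40 weeks, and 57.0 CPM, against 3.84 CPM and 0.607 CPM in the WT gate, at 14 weeks. Reads over its shared exons do not separate p16 from p19ARF. Cdkn2c had 595 CPM, against 173 CPM and 34.2 CPM in the WT gate, at 40 weeks, and 342 CPM, against 67.0 CPM and 24.2 CPM, at 14 weeks. Cdkn2d had 399 CPM, against 75.1 CPM and 50 CPM in the WT gate, at 40 weeks, and 275 CPM, against 66.5 CPM and 50.7 CPM, at 14 weeks. All 4 INK4 or p21 genes named were therefore highest in dividing, then in non-dividing p25OE, then in WT barcodes. Cdkn1b (p27) and Cdkn1c (p57) differed less, with log2 ratios of 0.91 and 1.0 at 40 weeks and 0.99 and 1.11 at 14 weeks.

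Turning to p53 targets, Phlda3 had 78.8 CPM, against 39.2 CPM in non-dividing barcodes, at 40 weeks (log2 ratio 1.01, 0.81 to 1.20) and 59.0 CPM, against 19.0 CPM, at 14 weeks (1.64, 1.25 to 2.02). Mdm2, which encodes the ligase that removes p53, had log2 ratios of 0.50 (0.29 to 0.71) and 0.62 (0.30 to 0.93). Trp53, the gene of p53 itself, was called at 40 weeks only, at 0.67 (0.43 to 0.90), against 0.32 (−0.10 to 0.72) at 14 weeks. The lowest members were the antiproliferative and stress genes Btg2, at −0.45 and −0.54, and Gadd45b, at −0.38 and −0.50, none of them called. Btg2 and Gadd45b were named because they were lowest, so their place below the CDK inhibitors partly follows from that choice.

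Ccnd2 went the other way from most of the cycle genes. Ccnd2, a cyclin that starts the cycle with Cdk4 or Cdk6, had 1.82 CPM in dividing barcodes at 40 weeks, from 8 UMIs, against 13.8 CPM in non-dividing ones and 369 CPM in the WT gate, a log2 ratio of −2.92 (−4.15 to −1.91). With at least 4 rule genes the 40-week ratio was −0.77, and Ccnd2 had 16.7 CPM in barcodes with 4 to 5 rule genes. At 14 weeks it had 32.2 CPM, against 160 CPM in non-dividing barcodes and 504 CPM in the WT gate, a ratio of −2.31 (−2.76 to −1.90). Ccnd1 had 1 UMI in dividing barcodes at 40 weeks and did not pass the filter; at 14 weeks it had 8.72 CPM, against 57.9 CPM in non-dividing and 65.9 CPM in WT barcodes. Ccnd3 was within 1.5-fold, with 71.1 CPM, against 80.5 CPM, at 40 weeks and 83.8 CPM, against 72.4 CPM, at 14 weeks. Among their partners, Cdk4 had 221 CPM, against 166 CPM, at 40 weeks and 194 CPM, against 119 CPM, at 14 weeks. Cdk2, the kinase of cyclins E and A, had 12.3 CPM, against 2.30 CPM, and 16.1 CPM, against 2.41 CPM. Rb1, the retinoblastoma gene, had 33.7 CPM, against 11.8 CPM, at 40 weeks and 48.9 CPM, against 26.9 CPM, at 14 weeks. In the whole list of G1 cyclins and their kinases, 7 of the 15 that passed were called higher and 1 lower at 40 weeks, and 6 of 16 higher and 2 lower at 14 weeks.

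Most DNA damage and repair genes were called higher. Of 31 listed, 31 passed at 40 weeks, 23 called higher and 0 lower (median log2 ratio 1.39), and 28 passed at 14 weeks, 20 called higher and 0 lower (1.12). Brca1, which acts in recombination repair, had 28.2 CPM, against 2.36 CPM in non-dividing barcodes, at 40 weeks and 63.0 CPM, against 4.06 CPM, at 14 weeks. Its partner Bard1 had 24.6 CPM, against 1.68 CPM, and 24.1 CPM, against 1.10 CPM. Exo1, an exonuclease of mismatch and break repair, had 20.5 CPM, against 1.62 CPM, and 26.1 CPM, against 0.877 CPM. Checkpoint kinase genes were less apart: Chek1 had 12.3 CPM, against 4.48 CPM, at 40 weeks and 18.8 CPM, against 9.32 CPM, at 14 weeks. Trp53bp1, which protects broken ends, was not called, with log2 ratios of −0.11 (−0.37 to 0.14) and −0.07 (−0.42 to 0.27). Of the 23 windows of these genes, 52.2% held an E2F match and 4.35% a CHR.

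Cdk5 did not differ between the classes beyond its counting interval. It had 33.9 CPM in dividing barcodes, against 37.5 CPM in non-dividing ones and 34.2 CPM in the WT gate, at 40 weeks (log2 ratio −0.14, −0.41 to 0.12), and 39.6 CPM, against 42.7 CPM and 31.5 CPM, at 14 weeks (−0.11, −0.53 to 0.29). Cdk5r1, the gene of p35, was called higher, with 26.2 CPM, against 16.2 CPM and 15.5 CPM in the WT gate, at 40 weeks (0.69, 0.36 to 1.01) and 35.5 CPM, against 20.1 CPM and 15.5 CPM, at 14 weeks (0.83, 0.36 to 1.27). Cdk5r1 was under the 1.5-fold line at 40 weeks with the mean of per-barcode CPM (0.51) and at 14 weeks in barcodes of 5000 to 20000 UMIs (0.39). Whether RNA of the p25 transgene is counted under this gene is not given in the sources used here. Cdk5rap2, a centrosome protein named for binding the Cdk5 activator, had log2 ratios of 1.93 and 1.95. Mapt, the tau gene and a known Cdk5 substrate, was lower at 40 weeks, at −0.88 (−1.22 to −0.54), and not called at 14 weeks, at −0.55 (−0.95 to −0.18). With at least 8 rule genes Mapt was past the 1.5-fold line at 14 weeks, at −1.11. Over the list of Cdk5 and its partners, 2 of 15 were called higher and 2 lower at 40 weeks and 4 of 16 higher and 4 lower at 14 weeks.

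Pomc took a smaller share of the RNA in dividing cells. At 40 weeks its share of a barcode's UMIs had a median of 3.54% in dividing barcodes (range 1.02 to 36.4%), against 6.88% in non-dividing ones (0.676 to 71.8%) and 22.1% in non-dividing barcodes of the WT gate. At 14 weeks the medians were 3.82% (0.0449 to 21.4%), against 15.2% (0.0257 to 55.8%) and 21.0% in WT. The ranges overlap throughout. In summed UMIs the log2 ratio was −1.04 (−1.05 to −1.04) at 40 weeks and −1.50 (−1.51 to −1.49) at 14 weeks. In UMIs per barcode the order was not the same at both ages: the median was 371 Pomc UMIs in dividing and 318.5 in non-dividing barcodes at 40 weeks, and 590 and 933 at 14 weeks. Free RNA adds Pomc to every barcode. It was gauged in kept barcodes outside the gate with at least 5 of the 7 macrophage markers and no UMI of Pcsk2. These held a median of 1.48% Pomc at 40 weeks (71 barcodes, 10th to 90th percentile 1.12 to 2.23%). At 14 weeks the median was 0.190% (819 barcodes, 0.0561 to 0.847%). A dividing barcode at the low end of the 40-week range thus cannot be told apart from background by Pomc alone.

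**Figure D5:**
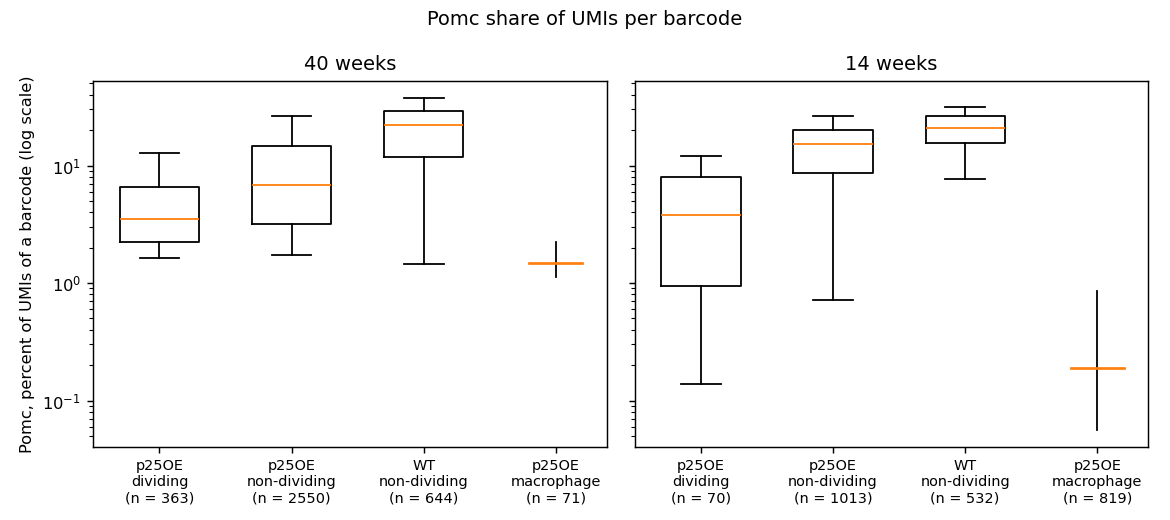
Pomc share of a barcode's UMIs (percent, log axis) in dividing and non-dividing barcodes of the p25OE libraries and non-dividing barcodes of the WT gate. Beside them are p25OE barcodes outside the gate with at least 5 macrophage markers and no UMI of Pcsk2. Boxes are quartiles with the median, and whiskers and plain lines run from the 10th to the 90th percentile. Dividing medians are 3.54% and 3.82%, below the non-dividing medians of 6.88% and 15.2% and the WT medians of 22.1% and 21.0%.

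Other genes of hormone processing and the secretory granule were modestly lower. Of 26 genes, 0 were called higher and 6 lower at 40 weeks (median log2 ratio −0.30); of the 25 that passed at 14 weeks, 1 was called higher and 9 lower (−0.19). Pam, the enzyme that amidates alpha-MSH, had 91.4 CPM, against 176 CPM in non-dividing barcodes, at 40 weeks and 97.9 CPM, against 184 CPM, at 14 weeks. Ptprn, a protein of the granule membrane, had 158 CPM, against 245 CPM, and 113 CPM, against 196 CPM. Pcsk2, which the gate required, had log2 ratios of −0.60 at 40 weeks and −0.21 at 14 weeks. Chga, the granule protein chromogranin A, was within 1.5-fold, with 2647 CPM, against 3823 CPM, at 40 weeks and 2689 CPM, against 2934 CPM, at 14 weeks. Pcsk1n and Scg2 were called lower at 14 weeks, at −1.01 (−1.09 to −0.93) and −0.78 (−0.87 to −0.69), and not at 40 weeks, at −0.19 and −0.15.

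A tail of dividing barcodes at 14 weeks held almost no Pomc. Under 1% of UMIs were Pomc in 19 of 70 dividing barcodes (27.1%, 17.2 to 39.1%), against 111 of 1013 non-dividing barcodes (11%, 9.10 to 13%); at 40 weeks the counts were 0 of 363 and 8 of 2550, in a library whose background alone lies above 1%. The 1% line was drawn after these values were seen. Among the 19 barcodes Pax7 had 173 CPM and was seen in 16 of them, against 202 CPM in the 51 with at least 1% Pomc, and Chga had 2666 CPM, against 2697 CPM. Oacyl, an acyltransferase gene that marks melanotrophs, had 178 CPM, against 843 CPM, and 60.3% of those UMIs came from 1 barcode. Tbx19 had 24.3 CPM in the 19, from 10 UMIs, against 70.3 CPM in the 51, and Pcsk2 had 767 CPM, against 1367 CPM.

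Some inhibitor genes differed in these 19. Cdkn1a had 494 CPM, against 232 CPM in the 51 others, Cdkn2a 102 CPM, against 39.8 CPM, and Neat1, a nuclear long RNA, 733 CPM, against 307 CPM. Among the 19, 1 barcode held 14 of the 42 Cdkn2a UMIs, and 1 held 38 of the 203 Cdkn1a UMIs. Cdkn2a was seen in 12 of the 19 and in 21 of the 51, and Cdkn1a in 19 and 38. Cdkn1b had 268 CPM, against 253 CPM, and Cdkn1c 149 CPM, against 151 CPM. Sp8, a transcription factor gene, had 141 CPM, against 37.0 CPM. Mcm2 stood at 114 CPM, against 111 CPM, and of the rule genes Top2a at 648 CPM, against 615 CPM, and Mki67 at 679 CPM, against 452 CPM. Single barcodes of other types stood out among them: all 26 Emcn UMIs, an endothelial marker, came from 1 barcode, 79 of 84 Cyp2f2 UMIs, a stem cell marker, from 1, and 67.7% of the Vim UMIs from 1. Without the low-Pomc barcodes the median Pomc share of dividing barcodes at 14 weeks was 5.42%, against 16.2% in non-dividing ones.

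Melanotroph identity genes were mixed. Of 22 identity genes, 18 passed at 40 weeks, 5 called higher and 1 lower (median log2 ratio −0.12), and 17 at 14 weeks, 3 higher and 3 lower (−0.03). Insm1, a zinc finger factor of endocrine differentiation, had 74.3 CPM, against 35.5 CPM in non-dividing barcodes and 23.0 CPM in the WT gate, at 40 weeks and 91.9 CPM, against 61.2 CPM and 51.0 CPM, at 14 weeks. Isl1, a LIM homeodomain factor of the pituitary, had 49.7 CPM, against 32.4 CPM, and 40.9 CPM, against 25.3 CPM. Sp8 had 107 CPM, against 61.5 CPM in non-dividing and 1.16 CPM in WT barcodes, at 40 weeks and 65.7 CPM, against 13.6 CPM and 2.25 CPM, at 14 weeks. Sp8 was on the identity list although the WT gate held little of it, so its ratio is not a measure of WT melanotroph identity. These 3 factors were called higher at both ages, but 2 of them near the line. Insm1 at 14 weeks had a log2 ratio of 0.59, and 0.33 with median of ratios scaling. Isl1 had ratios of 0.62 and 0.69, and was at 0.43 at 40 weeks with at least 4 rule genes and at 0.31 at 14 weeks in barcodes of 5000 to 20000 UMIs. Oacyl was lower at 40 weeks, with 345 CPM, against 674 CPM, and not called at 14 weeks, with 660 CPM, against 908 CPM. With at least 8 rule genes its log2 ratio at 14 weeks was −1.26, past the 1.5-fold line.

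Stem cell and Notch genes were mostly too low to compare: 12 of 27 at 40 weeks and 14 of 27 at 14 weeks did not pass the filter. Sox2, the factor of pituitary stem cells that is also found in melanotrophs, was called higher at 40 weeks, with 70.6 CPM, against 44.1 CPM (log2 ratio 0.68), and just under the 1.5-fold line at 14 weeks, with 125 CPM, against 84.1 CPM (0.57). Id1, an inhibitor of differentiation factors, had 74.0 CPM, against 23.2 CPM, and 40.9 CPM, against 17.4 CPM. Vim, the filament protein of stem and mesenchymal cells, had 69.9 CPM, against 4.85 CPM, at 40 weeks, where it was seen in 33.1% of dividing barcodes and no barcode held over 4.89% of its UMIs. At 14 weeks it had 53 CPM, against 5.59 CPM, with 53.2% of the UMIs in 1 barcode. The stem cell genes Aldh1a2, Fstl1 and Hes5 did not pass at either age.

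Genes named for p25OE melanotrophs in general were mixed at 40 weeks and mostly higher at 14 weeks. In a list of 18 peptide and other genes, chosen on these libraries and so not independent of them, 10 passed at each age, with 3 called higher and 3 lower at 40 weeks (median log2 ratio −0.15) and 7 higher and 1 lower at 14 weeks (1.33). Neat1 had 844 CPM, against 439 CPM in non-dividing barcodes and 30.3 CPM in the WT gate, at 40 weeks and 424 CPM, against 195 CPM and 32.0 CPM, at 14 weeks. Gal, the galanin gene, was lower at both ages, with 108 CPM, against 245 CPM, and 42.2 CPM, against 101 CPM. Pyy, the peptide YY gene, was not called at 40 weeks, with 49.0 CPM, against 60.9 CPM, and was higher at 14 weeks, with 48.3 CPM, against 15.9 CPM. The 14-week Pyy level rests on few cells. A single barcode held 23 of the 39 Pyy UMIs in the 19 dividing barcodes under 1% Pomc. Another held 22 of the 33 in the 51 other dividing barcodes. Malat1, another nuclear long RNA, was within 1.5-fold, at −0.43 and −0.47 on the log2 scale, so Neat1 and Malat1 lay on opposite sides of 0. Malat1 was past the 1.5-fold line at 40 weeks with the mean of per-barcode CPM (−0.72) and at 14 weeks with median of ratios scaling (−0.73).

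Neuronal and excitability genes had medians of −0.04 at 40 weeks and −0.06 at 14 weeks, with 2 called higher and 4 lower of the 25 that passed at 40 weeks and 5 higher and 7 lower of 25 at 14 weeks. Nefm, a neurofilament gene, had 63.1 CPM, against 29.8 CPM, at 40 weeks and 51.6 CPM, against 28.2 CPM, at 14 weeks. Stmn2, a regulator of microtubules in neurites, had 69.3 CPM, against 45.5 CPM, and 44.9 CPM, against 18.5 CPM. Tmem158 was lower, with 61.5 CPM, against 92.5 CPM, and 76.4 CPM, against 169 CPM. Nefm and Stmn2 were named as among the highest of the list and Tmem158 as among the lowest, so their opposite sides follow from that choice.

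Growth-related machinery was mostly close between the classes at the main scaling. Cytosolic ribosomal proteins had medians of −0.25 and −0.09 with 0 of 35 called in either direction at either age, and the 13 mitochondrially encoded genes medians of −0.19 and −0.46, with 0 called at 40 weeks and 2 lower at 14 weeks. Median of ratios scaling, which lowers every 14-week log2 ratio by 0.25, takes the mitochondrially encoded median at 14 weeks past the 1.5-fold line. Nuclear oxidative phosphorylation genes had medians of −0.08 at 40 weeks and 0.14 at 14 weeks (−0.11 there with median of ratios scaling), with 0 of 39 and 3 of 39 called higher and 0 lower. Among ribosome biogenesis and nucleotide synthesis genes 5 of 26 were called higher and 3 lower at 40 weeks and 7 of 26 higher and 0 lower at 14 weeks. Ctps, which makes CTP, had 30.3 CPM, against 15.4 CPM, at 40 weeks and 56.3 CPM, against 15.9 CPM, at 14 weeks. In glycolysis, Aldoa was lower at both ages, with 335 CPM, against 750.5 CPM, and 202 CPM, against 434 CPM. The highest median among these lists was 0.35, for ribosome biogenesis and nucleotide synthesis at 14 weeks (0.09 with median of ratios scaling).

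Stress lists were mixed. Heat shock and unfolded protein genes had medians of −0.18 at 40 weeks and 0.05 at 14 weeks (−0.20 there with median of ratios scaling). Of these genes 2 of 25 were called higher and 3 lower at 40 weeks, and 2 of 24 higher and 2 lower at 14 weeks. The heat shock genes Hspa1a and Hspa1b, near-identical copies between which reads may be split, were among the lower ones: Hspa1b had 1 UMI in dividing barcodes at 40 weeks, against 80 in non-dividing ones, and Hspa1a log2 ratios of −0.88 at 40 weeks and −2.24 at 14 weeks, the second from 10 UMIs. Hsp90aa1, the inducible cytosolic Hsp90, had 1188 CPM, against 627 CPM in non-dividing barcodes and 389 CPM in the WT gate, at 40 weeks and 1580 CPM, against 823 CPM and 695 CPM, at 14 weeks. Ddit3, the stress factor CHOP, had 152 CPM, against 71.6 CPM, and 69.1 CPM, against 35.4 CPM. Xbp1, a driver of secretory capacity, was at −0.58 and −0.75 on the log2 scale, not called at 40 weeks and called lower at 14 weeks. Immediate early genes, which respond to dissociation, had medians of −0.24 and 0.00, with 2 of 18 called higher and 4 lower at 40 weeks and 4 of 18 higher and 0 lower at 14 weeks.

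Interferon genes were near even at 40 weeks, with 3 of 19 called higher and 2 lower (median log2 ratio 0.11, and −0.05 with median of ratios scaling), and higher at 14 weeks, with 14 of 19 called higher and 0 lower (1.24). Isg15, a ubiquitin-like interferon target, had 225 CPM in dividing barcodes at 14 weeks, against 59.0 CPM in non-dividing ones and 9.10 CPM in the WT gate. Cxcl10, an interferon-induced chemokine, had 114 CPM, against 5.92 CPM, at 14 weeks and was seen in 8.57% of dividing barcodes. The 14-week list median was 0.22 in barcodes of 5000 to 20000 UMIs and 0.40 without the 6% of gated barcodes with the most UMIs. Usp18, an interferon-induced protease gene with a log2 ratio of 1.75 at 14 weeks, had 40.0% of its dividing UMIs at 14 weeks in 1 barcode.

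The lowest genes outside the lists, by the same measure, included Ccl12, Cga, Rbp4, Ttn, Tnxb, Fkbp11, Gpx3, Il6ra and Ache. Cga, the shared alpha subunit of gonadotroph and thyrotroph hormones, had 32.9 CPM in dividing barcodes at 14 weeks, against 2547 CPM in non-dividing ones, and 30.5 CPM, against 78.8 CPM, at 40 weeks. Without barcodes with at least 3 gonadotroph or thyrotroph UMIs its log2 ratio was −1.08 at 14 weeks, against −6.28 with them. At 40 weeks it was −0.10, against −1.37, which ends the call there. Cga is itself among the markers that picked these barcodes, so this change partly follows from the choice. Rbp4, a retinol carrier gene, was at −0.70 at 14 weeks without these barcodes, against −3.36 with them, and at −0.62 at 40 weeks with at least 4 rule genes, against −2.36. Ccl12, a chemokine of macrophages, had 6 UMIs in dividing barcodes at 40 weeks, against 117 in non-dividing ones, and 2 UMIs, against 129, at 14 weeks; its log2 ratio at 40 weeks was −2.41, and 0.82 without barcodes with at least 3 macrophage markers. Fkbp11, a folding enzyme of secretory cells, had 52.9 CPM, against 112 CPM, at 40 weeks and 30.2 CPM, against 73.0 CPM, at 14 weeks. Gpx3, a secreted glutathione peroxidase, had 145 CPM, against 285 CPM, and 32.8 CPM, against 78.3 CPM. Ache, acetylcholinesterase, had 4.10 CPM, against 13.1 CPM, and 7.38 CPM, against 22.4 CPM. The lower genes included markers of other cell types (Cga, Ccl12) beside genes of the secretory route.

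Other dividing cells of the same libraries give a level to set these genes against: outside the gate, 19 kept barcodes at 40 weeks and 64 at 14 weeks had at least 6 rule genes. At 14 weeks Mcm2 had 112 CPM in the dividing melanotroph-lineage barcodes and 34.6 CPM in the dividing barcodes outside the gate. Cdkn1a had 304 CPM, against 141 CPM outside the gate, and Cdkn2a 57.0 CPM, against 31.0 CPM. Top2a, a rule gene, had 624 CPM, against 711 CPM. At 40 weeks Cdkn1a had 316 CPM, against 270 CPM outside the gate, and Cdkn2a 77.9 CPM, against 112 CPM. Those 19 barcodes still had 112 CPM of Pax7, near the 116 CPM inside the gate, while the 64 at 14 weeks had 13.1 CPM, against 194 CPM inside. Both classes were chosen on the rule genes, and with 1 library at each age their difference was not tested.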

How the data were processed

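Single-cell RNA was measured in 4 pituitary libraries, 1 for each of p25OE and WT at 40 and 14 weeks. The values are UMI counts for each gene and barcode, deposited by the authors as sparse matrices with no normalization. Cell Ranger, the 10x counting program, is listed as 3.0.2 with mm10 per the submitters' processing notes; per the file headers it was 3.0.1. The lowest UMI count of a barcode lies between 500 and 653 in the 4 matrices. No cell type annotation or doublet removal is given in the sources used here.

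From the counts, barcodes were filtered and gated as described, and UMIs of the dividing and non-dividing classes were summed within a library. Ratios of CPM carry exact intervals from the 2 counts, shares carry Clopper-Pearson intervals, and a gene entered the comparison with at least 20 UMIs in the dividing class plus the non-dividing class scaled to its size. A gene at 0 in a class was set to a floor of 3 counts over that class, so its fold is a lower bound. No model across genes was fitted, since each group is 1 library; a 1.5-fold ratio is a size threshold, not a test. Scripts used Python 3.11.15, numpy 2.4.6, scipy 1.17.1, pandas 2.3.3 and matplotlib 3.10.9, and were checked on simulated counts.

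The members, the markers and the 23 gene lists were chosen with earlier results of these data known, so no list is independent support for a direction. Named with full values were the rule genes, a core set (Pcsk2, Pomc, Mcm2, Cdk5, Cdk5r1, Ccnd1, Ccnd2, Cdkn1a, Cdkn1b, Cdkn1c, Cdkn2a, Pax7, Tbx19), up to 3 members of each list with the highest and 3 with the lowest ratio by the interval bound nearest to no difference at the lesser of both ages, and the 10 highest and 10 lowest genes outside the lists; other list members could be named, and a few genes are not reported here. Alternatives changed the number of rule genes (4 or 8), the Pcsk2 minimum (5), the mitochondrial limit (10%), the Gh and Prl limit (2%), the depth range (5000 to 20000 UMIs, or without the 6% of gated barcodes with the most UMIs, since no doublet caller was run), the scaling, the filter and the fold. Chosen after the data were seen were 3 more, which left out barcodes with under 1% Pomc, with at least 3 of 7 macrophage markers, or with at least 3 gonadotroph or thyrotroph UMIs. Promoter windows came from RefSeq for GRCm38.p6; Pbk has no window.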

Additional observations from a re-analysis of the deposited data

Results flagged for a closer look

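The chemokine and cytokine list lay on opposite sides of no difference at the 2 ages. Its median log2 ratio, dividing over non-dividing, was −1.15 at 40 weeks, where 0 of the 10 genes that passed were called higher and 7 lower, and 0.68 at 14 weeks, where 3 of 5 were called higher and 0 lower. The difference of these medians, 40 weeks subtracted from 14 weeks, was 1.83, and it was not tested, since each age is 1 library. The 5 genes that passed at 14 weeks are fewer than those at 40 weeks, and Cxcl2, Ccl2, Ccl3, Ccl4 and Il1b passed at 40 weeks alone. Cxcl2, a neutrophil chemokine, had 18 UMIs in dividing barcodes at 40 weeks, against 417 in non-dividing ones, and 4 UMIs, against 13, at 14 weeks. Cxcl10 had 170 UMIs in dividing barcodes at 14 weeks, from 6 of 70 barcodes, against 54 in non-dividing ones. At 40 weeks the median was 0.12 without barcodes with at least 3 of 7 macrophage markers and 0.26 with at least 5 UMIs of Pcsk2. The direction at 40 weeks was therefore not held without these barcodes.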

How the results depend on the processing

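No paired analysis was possible because each group is 1 library and the labels give no replicate numbers. Of the recomputed values, 2863 stayed within the main value's interval (counts: within 1.5 times), 704 moved farther and 5 that had been past the 1.5-fold line changed sign. Values under the line changed sign too, among them Mcm2 at 40 weeks, −0.07 with the mean of per-barcode CPM against 0.18, and Pax7 at 14 weeks, −0.27 against 0.03. With at least 4 rule genes Mapt (−0.45), Ptprn (−0.34), Oacyl (−0.48), Fkbp11 (−0.42) and Gpx3 (−0.41) were under the line at 40 weeks.

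The share of dividing barcodes at 40 weeks was 8.82% with at least 4 rule genes, 4.07% with at least 8 and 2.89% after thinning; at 14 weeks it was 6.80%, 2.41% and 1.66%, and 2.98% without the 6% of gated barcodes with the most UMIs. The median Pomc share of dividing barcodes was 4.42% at 40 weeks and 5.46% at 14 weeks with at least 4 rule genes, and 5.42% at 14 weeks without barcodes under 1% Pomc. That of non-dividing barcodes was 8.01% at 40 weeks and 16.7% at 14 weeks with at least 5 Pcsk2 UMIs, 7.59% and 16.2% in barcodes of 5000 to 20000 UMIs, and at 14 weeks 16.1% with at most 10% mitochondrial UMIs and 16.2% without barcodes under 1% Pomc.

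With at least 4 rule genes the medians at 40 weeks were 1.31 for S phase and 4.20 for mitosis; at 14 weeks the mitosis median was 6.09 in barcodes of 5000 to 20000 UMIs. The interferon median at 14 weeks was 0.49 with at least 8 rule genes, 0.44 with Gh and Prl each under 2%, 0.40 without the 6% with the most UMIs and 0.22 in barcodes of 5000 to 20000 UMIs.

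Genes called lower at 40 weeks numbered 1193 with median of ratios scaling, 1308 with the mean of per-barcode CPM, 392 with at least 50 UMIs, 1286 with at least 5 and 194 at 2-fold, and genes called higher 1149 at 2-fold. At 14 weeks lower genes numbered 1317, 1153, 283, 1260 and 208 under the same settings, and higher genes 1425 with median of ratios scaling and 1073 at 2-fold.

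Turned round were the chemokine median, to 0.26 at 40 weeks with at least 5 Pcsk2 UMIs, to 0.12 at 40 weeks without barcodes with macrophage markers and to -0.084 at 14 weeks with a filter of 5 UMIs, Ccl12 at 40 weeks, to 0.82 without barcodes with macrophage markers, and Klf4 at 14 weeks, to -0.065 without the 6% with the most UMIs. The cause of these moves was not tested. With 70 dividing barcodes at 14 weeks, genes of few UMIs rest on a few barcodes, and non-dividing barcodes include cells whose rule genes were missed at lower depth.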
